A study of Mus musculus with 8 samples.

Results

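Fatty acid and triglyceride synthesis was followed through 33 genes of mouse liver, taken by symbol from a deposited expression table of 52110 named rows, and all 33 symbols were found on a single row each. They were chosen by symbol for their function, with earlier results of these data known. They fall into 3 blocks: 11 lipogenic enzymes and their regulators, 9 elongases and desaturases, and 13 genes of glycerolipid assembly. Bulk RNA was sequenced from the livers of WT mice fed CDAHFD, a high-fat diet that lacks choline and gives its amino acids in free form, which brings on nonalcoholic steatohepatitis. Every mouse had human circulating extracellular vesicles injected into a vein. In group RIC_hEV (4 libraries) the vesicles came from volunteers after remote limb ischemic conditioning, in which blood flow to a limb is briefly stopped and restored; in group ctr_hEV (4 libraries) they came from sham-treated volunteers. Both groups therefore share the diet, the genotype and the injection of human vesicles, and no library came from mice without the diet or without vesicles. The labels give no strain, sex, age, vesicle dose or time on diet, and do not say that each library is a separate mouse, so the p-values rest on a spread between libraries that may be technical.

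De novo lipogenesis turns citrate exported from mitochondria into acetyl-CoA, then malonyl-CoA, then palmitate. Elongases and desaturases lengthen and desaturate that product and the fatty acids of the diet. Acyl-CoAs are then joined to glycerol in successive steps, from lysophosphatidate through phosphatidate and diacylglycerol to triglyceride, which the liver stores in droplets or exports. In liver the transcription factors SREBP-1c (from Srebf1), driven by insulin, and ChREBP (from Mlxipl), driven by glucose, switch much of this set on.

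Levels are in FPKM, fragment counts scaled for gene length and for the library's total, so genes of unlike length can be compared as far as the unstated gene lengths hold. Estimated depth was 19300000 to 28500000 fragments in RIC_hEV libraries and 23700000 to 28800000 in ctr_hEV libraries. On the leading principal component of all tested genes, which held 44.4% of the variance, RIC_hEV libraries lay between 4.75 and 16.3, while ctr_hEV 1 and ctr_hEV 3 lay at -36.1 and -23.3, ctr_hEV 2 at -2.36 and ctr_hEV 4 at 16.3. The ctr_hEV group was thus split, and values without ctr_hEV 1 and ctr_hEV 3 are given beside many of the differences. Every member whose direction reversed without them is listed in the closing section. Hepatocyte markers summed to 32500 to 38400 FPKM in RIC_hEV and 27100 to 40700 FPKM in ctr_hEV, with none of the 10 at 0 in any library, as the liver label requires. Of 7 adipocyte markers, the defining adipokine Adipoq was listed at 0 in every library, while 2 had a mean of at least 1 FPKM. The adipocyte markers summed to 51.6 to 82.5 FPKM in RIC_hEV and 46.3 to 100 FPKM in ctr_hEV.

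None of the 29 members with a mean of at least 1 FPKM passed the test of RIC_hEV against ctr_hEV (limma on log2(FPKM + 1), Benjamini-Hochberg adjusted over all 11274 tested genes, threshold 0.05; smallest adjusted p of a member 0.334). Across all genes 4 passed, or 0.0355% of those tested. At an unadjusted p under 0.05 there were 3 members, Lpin1, Acacb and Scd2, where 14% of all tested genes (1576) reached that level. Of those 1576 genes, 297 were higher and 1279 lower in RIC_hEV as fitted; with each library centred on its median, 1356 genes reached that level, 918 higher and 438 lower. The members' share did not exceed that background.

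By RNA level the most abundant members were desaturases and elongases, while Fasn and Acaca, whose enzymes build palmitate itself, were low. Enzyme amounts were not measured. Scd1, which makes oleate and palmitoleate, averaged 402 ± 89.0 FPKM in RIC_hEV and 363 ± 50.2 FPKM in ctr_hEV (SD, n = 4 each here and below). Fads2, the entry enzyme of polyunsaturated fatty acid synthesis, averaged 386 ± 56.3 FPKM in RIC_hEV and 352 ± 50.1 FPKM in ctr_hEV. These levels overlapped each other and stood at ranks 120 and 126 of the whole table. Elovl5 and Elovl2, elongases of polyunsaturated fatty acids, followed at 183 and 172 FPKM over all 8 libraries, and Dgat2, the final acyltransferase of triglyceride synthesis, at 131 FPKM. Fasn, the fatty acid synthase, stood at 3.30 FPKM, and the acetyl-CoA carboxylase Acaca at 2.91 FPKM. The ranges of Elovl5 and Elovl2 overlapped, as did those of Fasn and Acaca. As levels summed over a block, elongases and desaturases held 1230 ± 200 FPKM in RIC_hEV and 1130 ± 161 FPKM in ctr_hEV. The sums for glycerolipid assembly were 346 ± 20.6 FPKM in RIC_hEV and 332 ± 6.84 FPKM in ctr_hEV. Those for lipogenic enzymes and regulators were 97.8 ± 7.21 FPKM in RIC_hEV and 103 ± 8.87 FPKM in ctr_hEV. In all 3 blocks the groups overlapped.

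**Figure D1:**
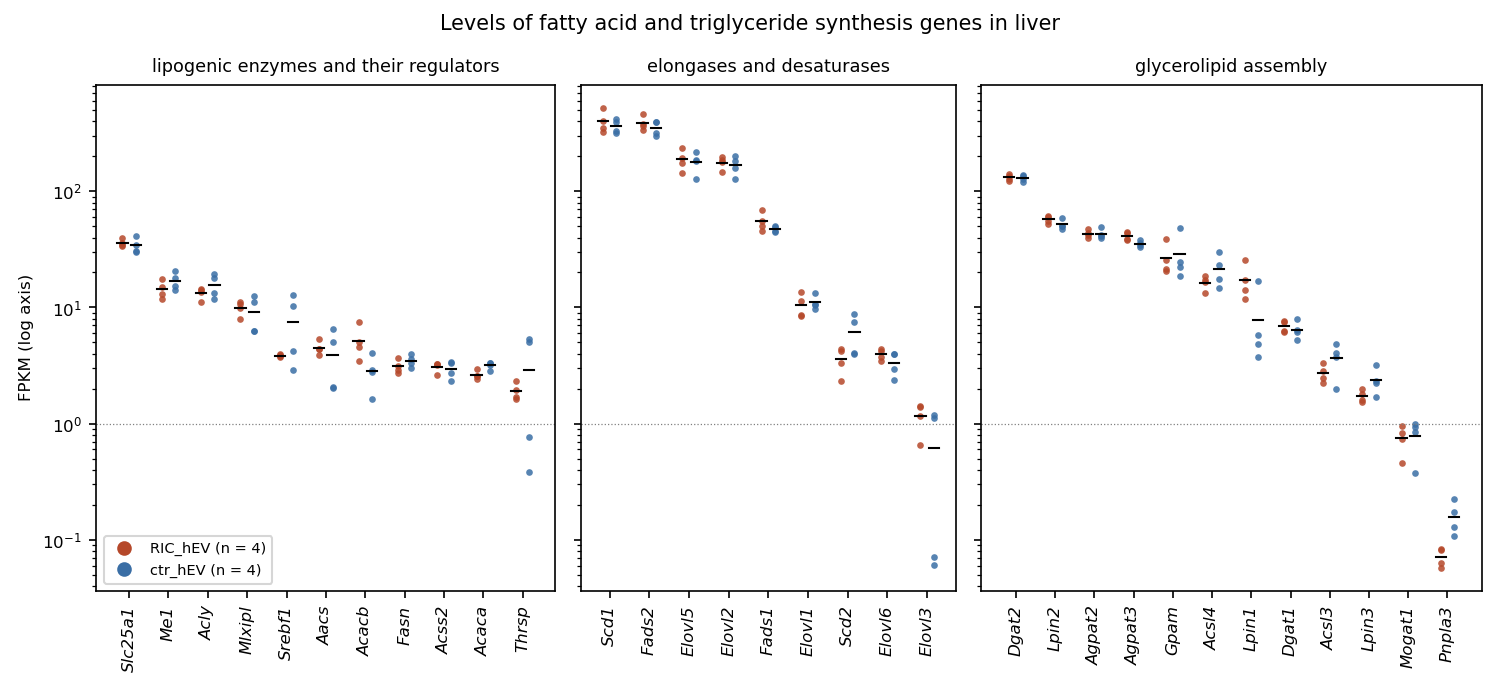
FPKM of each member in every library on a log axis, by block and in order of the mean level, with RIC_hEV libraries (red) left of ctr_hEV libraries (blue); black dashes are group means (n = 4) and the dotted line is 1 FPKM. Scd1 and Fads2 lie at 301.5 FPKM or more in every library while Fasn stays between 2.71 and 4.02 FPKM; Pnpla5, at 0 in all libraries, is not drawn.

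Within blocks, log2 differences of levels are given relative to the median tested gene, which lay at -0.11 in the fit, and on a log2(FPKM + 1) scale, which understates differences of genes at low level; SEs and p-values belong to the difference as fitted, before the median is subtracted. The median relative difference was 0.005 for the 11 lipogenic enzymes and regulators, 0.22 for the 8 tested elongases and desaturases and 0.12 for the 10 tested glycerolipid genes, against 0 for all tested genes by construction. Above that median lay 6 of 11, 7 of 8 and 7 of 10 members of these blocks. As fitted, with no median subtracted, 17 of the 29 tested members were higher in RIC_hEV, against 3042 of all 11274 tested genes. Of the 10 hepatocyte markers 9 were higher as fitted, with a median relative difference of 0.41, larger than that of any block. Whether the members differ from hepatocyte genes in general was not tested. The lipogenic median depended on the processing: it was 0.21 with a pseudocount of 0.1, 0.12 on a TPM scale, 0.17 without ctr_hEV 4, 0.15 without ctr_hEV 2 and -0.07 without ctr_hEV 1 and ctr_hEV 3. The elongase and desaturase median was 0.11 without RIC_hEV 1 and 0.04 with quantile normalization. The glycerolipid median was 0.03 with quantile normalization and 0.07 without ctr_hEV 1 and ctr_hEV 3. No difference between blocks was tested.

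**Figure D2:**
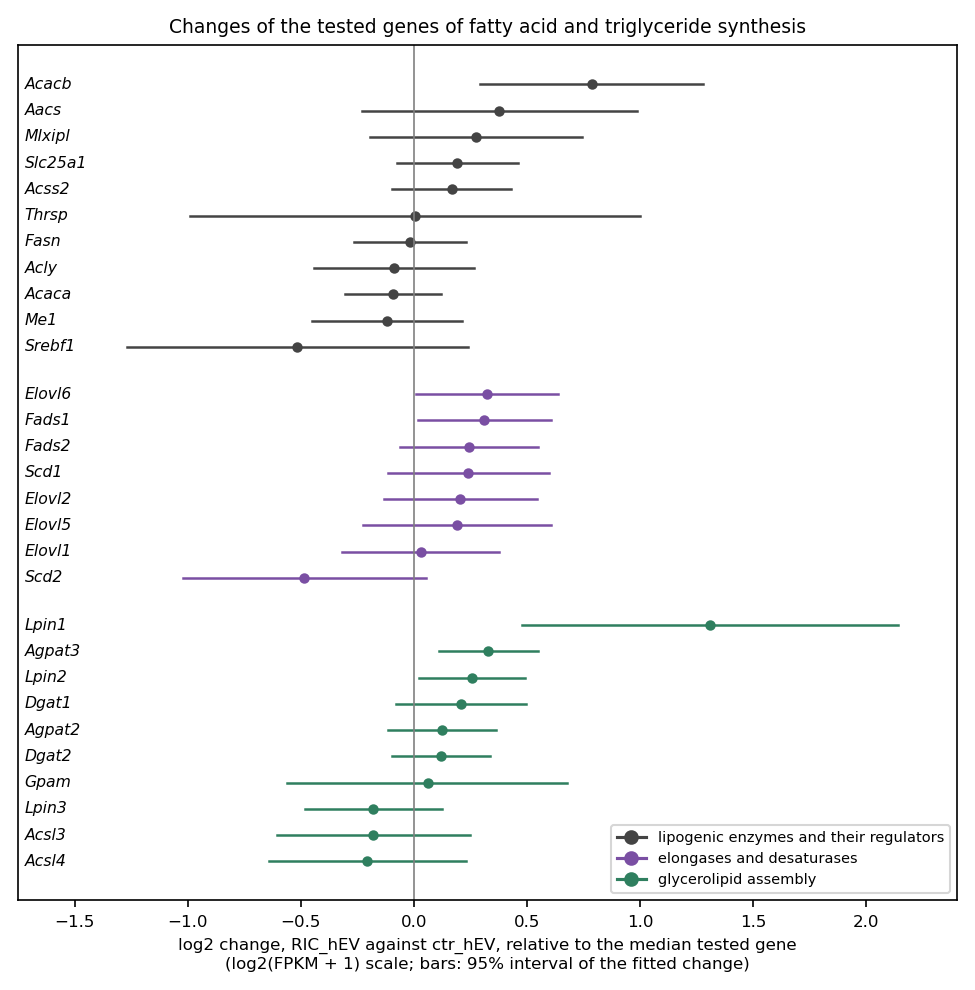
Difference of each tested member between RIC_hEV and ctr_hEV on the log2(FPKM + 1) scale, relative to the median tested gene, by block. Points are estimates. Bars are 95% intervals of the fitted change, shifted by that median and not adjusted for the number of genes. The p-values test the change before the shift, so the line at 0 is not their null. Fads1 lies clear of 0 at an unadjusted limma p of 0.163, and Scd2 crosses 0 at 0.0328. Lpin1 at 1.31 and Acacb at 0.79 lie farthest to the right and Srebf1 at -0.52 farthest to the left, and no member passed the adjusted test.

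Promoter windows are shown for Lpin1, Acacb, Srebf1 and Thrsp, members on whose values the results turn. They run from 250 bases before to 50 bases after a RefSeq start on build GRCm38.p6, which shares mm10's coordinates, and 27 of the 33 members had at least 1 such window. Each is printed 5′ to 3′ on the gene's strand, with every match to CCAAT (the box bound by NF-Y, on either strand) in capitals. E-boxes (CACGTG) and sterol response elements (TCACNCCAC) were searched too and would be in capitals, but neither string is in these 4 windows. Only these exact strings were searched, so variant forms of either element could be present. Srebf1 has 3 windows and the most downstream is shown; the only window of Acacb lies at a start inside the annotated gene. Gene-level FPKM does not tell such starts apart.
Lpin1, chr12:16610917-16611216, minus strand: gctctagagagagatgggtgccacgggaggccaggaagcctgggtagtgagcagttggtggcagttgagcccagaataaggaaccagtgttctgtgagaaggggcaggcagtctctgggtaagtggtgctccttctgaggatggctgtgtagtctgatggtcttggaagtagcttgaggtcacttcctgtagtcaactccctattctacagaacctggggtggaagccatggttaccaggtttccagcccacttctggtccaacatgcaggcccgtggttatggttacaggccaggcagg
Acacb, chr5:114165268-114165567, plus strand: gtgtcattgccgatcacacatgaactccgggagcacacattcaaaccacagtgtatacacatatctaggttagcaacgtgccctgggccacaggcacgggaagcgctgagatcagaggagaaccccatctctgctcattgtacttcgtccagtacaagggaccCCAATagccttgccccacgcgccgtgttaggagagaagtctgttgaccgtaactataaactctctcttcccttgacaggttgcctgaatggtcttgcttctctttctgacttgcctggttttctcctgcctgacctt
Srebf1, chr11:60210422-60210721, minus strand: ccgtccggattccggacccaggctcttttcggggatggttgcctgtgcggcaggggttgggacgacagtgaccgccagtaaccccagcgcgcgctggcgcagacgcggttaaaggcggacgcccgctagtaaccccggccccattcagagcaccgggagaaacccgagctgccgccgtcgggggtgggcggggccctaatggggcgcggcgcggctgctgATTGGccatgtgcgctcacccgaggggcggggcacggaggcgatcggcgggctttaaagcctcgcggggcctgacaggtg
Thrsp, chr7:97417501-97417800, minus strand: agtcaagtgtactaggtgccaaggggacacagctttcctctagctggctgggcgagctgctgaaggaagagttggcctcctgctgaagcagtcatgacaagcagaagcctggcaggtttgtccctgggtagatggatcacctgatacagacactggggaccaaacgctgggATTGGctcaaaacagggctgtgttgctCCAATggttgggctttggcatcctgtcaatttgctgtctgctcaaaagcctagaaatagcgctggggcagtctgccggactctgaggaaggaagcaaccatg

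A CCAAT was present in 18 of the 37 windows of members (48.6%), against 37.4% of all 32851 windows. An E-box was present in 6 member windows (16.2%), against 7.15% of all windows. The GC box GGGCGG, left in lower case, was in 20 member windows (54.1%) and 35.7% of all. The sterol response element was in 1 member window, of Mlxipl (2.7%), and in 1.24% of all. Thrsp has 2 CCAAT boxes, whose first bases lie 79 and 52 bases before the start, Srebf1 has 1 at 30 bases and Acacb 1 at 87 bases before it, and Lpin1 has none. All motifs were searched on both strands, GGGCGG can overlap ATTGG (the reverse of CCAAT), both windows of Elovl2 overlap, and a match is a description of letters only.

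Among lipogenic enzymes, the largest difference was in Acacb (chromosome 5, 114146535 to 114250761, plus strand), the acetyl-CoA carboxylase whose malonyl-CoA restrains mitochondrial fatty acid entry. Acacb was at 7.56, 3.46, 4.61 and 5.02 FPKM in RIC_hEV 1 to 4, and at 2.81, 2.915, 1.64 and 4.045 FPKM in ctr_hEV 1 to 4. Only RIC_hEV 2 and ctr_hEV 4 crossed, so the groups overlapped by that pair. The relative log2 difference was 0.79, and 0.675 as fitted (SE 0.22, unadjusted p = 0.0121, limma adjusted p = 0.351), and the relative one was 0.46 without ctr_hEV 1 and ctr_hEV 3. Acaca, the form that feeds fatty acid synthesis, averaged 2.63 ± 0.229 FPKM in RIC_hEV and 3.19 ± 0.241 FPKM in ctr_hEV (limma adjusted p = 0.364). Of its 31-base stretches 33.4% also occur in other annotated genes, among them Gm5182, so its level is uncertain. As a share of the summed FPKM of both carboxylases, Acacb held 74.7%, 58.8%, 64.1% and 62.9% in RIC_hEV 1 to 4, and 46.6%, 46.6%, 32.9% and 58.8% in ctr_hEV 1 to 4.

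The other enzymes of the route to palmitate had overlapping ranges in the groups, and none passed. Slc25a1, the mitochondrial citrate carrier, averaged 36.0 ± 2.56 FPKM in RIC_hEV and 34.2 ± 5.28 FPKM in ctr_hEV. Acly, which splits citrate to acetyl-CoA, was at 11.05 to 14.4 FPKM in RIC_hEV, against 19.3 FPKM in ctr_hEV 1, 17.99 in ctr_hEV 3, 11.7 in ctr_hEV 2 and 13.4 in ctr_hEV 4. Its relative log2 difference of -0.09 was 0.10 without ctr_hEV 1 and ctr_hEV 3. Fasn averaged 3.11 ± 0.402 FPKM in RIC_hEV and 3.49 ± 0.434 FPKM in ctr_hEV, with a relative log2 difference of -0.02 and a 95% interval from -0.27 to 0.23. Me1, a malic enzyme that supplies NADPH, averaged 14.4 ± 2.48 FPKM in RIC_hEV and 17.0 ± 2.93 FPKM in ctr_hEV. For Me1, 30.0% of 31-base stretches are shared with Gm7049 or Gm7329, which leaves its level uncertain. Acss2, which activates acetate, averaged 3.08 ± 0.310 FPKM in RIC_hEV and 2.94 ± 0.508 FPKM in ctr_hEV. The relative log2 difference of Acss2 was 0.17, and -0.07 without ctr_hEV 1 and ctr_hEV 3. Aacs, which activates acetoacetate for lipid synthesis, was at 3.88 to 5.32 FPKM in RIC_hEV, against 2.03 and 2.07 FPKM in ctr_hEV 1 and 3 and 5.07 and 6.53 FPKM in ctr_hEV 2 and 4. The ctr_hEV values thus lay in a low and a high pair, with RIC_hEV 2, 3 and 4 between them and RIC_hEV 1 inside the high pair, and the relative log2 difference of 0.38 was -0.28 without ctr_hEV 1 and ctr_hEV 3.

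The regulators had the same split within ctr_hEV, in opposite directions for different genes. Srebf1 (chromosome 11, 60199089 to 60222581, minus strand) was at 3.72, 4.01, 3.895 and 3.80 FPKM in RIC_hEV 1 to 4, and at 12.8, 2.90, 10.2 and 4.20 FPKM in ctr_hEV 1 to 4. The RIC_hEV values were almost equal, with an SD of 3.28% of the mean, while in ctr_hEV the SD was 63.1% of the mean and libraries 1 and 3 were high. The relative log2 difference was -0.52 (limma adjusted p = 0.401), and it was 0.14 without ctr_hEV 1 and ctr_hEV 3. Thrsp (chromosome 7, 97412938 to 97417730, minus strand), the thyroid hormone responsive spot protein that goes with active lipogenesis, was at 1.95, 2.34, 1.64 and 1.70 FPKM in RIC_hEV 1 to 4. In ctr_hEV 1 to 4 Thrsp was at 0.384, 5.07, 0.762 and 5.34 FPKM. Here ctr_hEV 1 and 3 were low, ctr_hEV 2 and 4 were high, and all RIC_hEV libraries lay in the gap between them. The relative log2 difference was 0.005 (SE 0.45 of the fitted change, limma adjusted p = 0.918). Without ctr_hEV 1 and ctr_hEV 3 it was -1.07 and passed, at a limma adjusted p of 0.0277 (0.0277 to 0.984 over all alternatives). In that fit 0.071% of all genes passed, and only ctr_hEV 2 and 4, the high Thrsp values of the group, were kept. The libraries left out were chosen from these same data, so the pass gives no support for a difference. Mlxipl was at 7.905 to 11.1 FPKM in RIC_hEV, against 6.27 and 6.33 FPKM in ctr_hEV 1 and 3 and 11.05 and 12.6 FPKM in ctr_hEV 2 and 4, and its relative log2 difference of 0.27 was -0.21 without ctr_hEV 1 and 3.

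**Figure D3:**
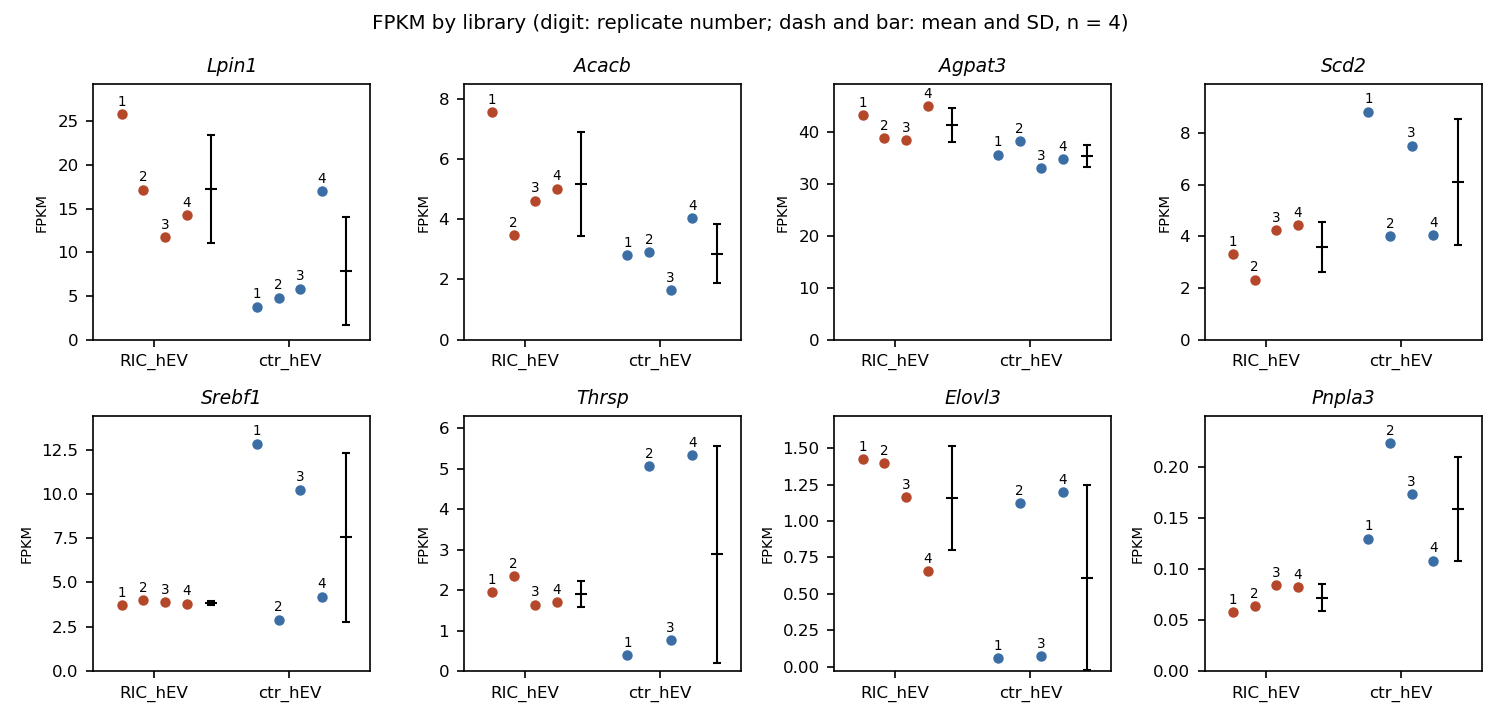
FPKM of 8 members in each library on linear axes, with RIC_hEV left of ctr_hEV and the replicate number above each point; the black dash and bar are the group mean and SD (n = 4). Srebf1 is high and Thrsp and Elovl3 are low in ctr_hEV 1 and 3, Lpin1 is high in ctr_hEV 4 alone of its group, and the groups stand apart in Agpat3 and Pnpla3.

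The marker sums of macrophages, stellate cells, bile duct and neutrophils were also highest in ctr_hEV 1 and ctr_hEV 3. Macrophage markers summed to 749 to 1130 FPKM in RIC_hEV, against 1921, 1009, 1519 and 966 FPKM in ctr_hEV 1 to 4, with 1 of 10 above and 9 below the median gene. Stellate cell and myofibroblast markers summed to 112 to 150 FPKM in RIC_hEV, against 282, 129, 216 and 120 FPKM in ctr_hEV 1 to 4, again with 1 of 10 above. Bile duct markers summed to 20.2 to 39.0 FPKM in RIC_hEV, against 146, 26.3, 108 and 27.6 FPKM in ctr_hEV 1 to 4, with 0 of 4 tested above. Neutrophil markers summed to 8.85 to 16.8 FPKM in RIC_hEV, against 35.8, 30.03, 71.9 and 15.4 FPKM in ctr_hEV 1 to 4, with 0 of 4 tested above and all 4 at an unadjusted p under 0.05. B and plasma cell markers summed to 42.4 to 54.0 FPKM in RIC_hEV and 13.8 to 25.6 FPKM in ctr_hEV, without overlap and with both tested members above. Endothelial markers, with 6 of 7 above, summed to 66.4 to 93.2 FPKM in RIC_hEV and 70.8 to 83.8 FPKM in ctr_hEV. As fitted, with no median subtracted, 3 endothelial markers were higher and 4 lower in RIC_hEV. The adipocyte list summed to 51.6 to 82.5 FPKM in RIC_hEV and 46.3 to 100 FPKM in ctr_hEV, with both tested members above. As fitted, 1 of these adipocyte markers was higher and 1 lower in RIC_hEV. Of the hepatocyte list 9 of 10 lay above and 6 were at an unadjusted limma p under 0.05. That level was also reached by 2 of 4 tested bile duct markers, both tested B and plasma cell markers and 1 of 10 macrophage markers. No tested stellate, endothelial or adipocyte marker reached it, and 14% of all tested genes did. No gene of these lists passed over all genes, only Ly6g and 5 adipocyte genes were at 0 in any library, and Spp1 is in both the macrophage and the bile duct list. In bulk liver, fewer cells of a type and less RNA per cell cannot be told apart. The part of these cell types in the values of Srebf1, Scd2, Acsl4 and Thrsp was not tested.

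Among desaturases, Scd1 and Scd2, both stearoyl-CoA desaturases, lay on opposite sides of the median gene. Scd1 was at 525.5, 324, 406 and 353 FPKM in RIC_hEV 1 to 4, and at 391, 316, 420 and 327 FPKM in ctr_hEV 1 to 4. The highest value was RIC_hEV 1, the lowest was ctr_hEV 2, and the groups overlapped between them (relative log2 difference 0.24, 95% interval -0.12 to 0.60, limma adjusted p = 0.681). Without RIC_hEV 1 that difference was 0.0877, and with quantile normalization 0.0593. Scd2 (chromosome 19, 44293674 to 44306864, plus strand), the isoform prominent in brain, was at 3.31, 2.32, 4.23 and 4.42 FPKM in RIC_hEV 1 to 4, and at 8.815, 4.01, 7.51 and 4.04 FPKM in ctr_hEV 1 to 4. The ctr_hEV 1 and 3 values were the highest, and the other ctr_hEV libraries lay within the RIC_hEV range. The relative log2 difference was -0.48 (SE 0.24, unadjusted p = 0.0328, limma adjusted p = 0.354), and -0.13 without ctr_hEV 1 and ctr_hEV 3. Scd1 made up 98.8% to 99.4% of their summed FPKM in RIC_hEV and 97.8% to 98.8% in ctr_hEV. Of Scd2's 31-base stretches 6.81% are shared with other genes, Scd1 first among them. Since Scd1 is far more abundant, an unknown part of the Scd2 reads could belong to it, which leaves the Scd2 level uncertain. The size of that part was not tested.

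Fads1 and Fads2, the delta-5 and delta-6 desaturases, kept nearly the same proportion in all libraries. Fads1 averaged 55.2 ± 10.5 FPKM in RIC_hEV and 47.4 ± 2.94 FPKM in ctr_hEV (relative log2 difference 0.31, limma adjusted p = 0.464). It held 12.5% ± 0.891 of the summed FPKM of both in RIC_hEV and 12% ± 0.878 in ctr_hEV. The highest value of either gene was RIC_hEV 1, at 69.7 FPKM for Fads1 and 466 FPKM for Fads2. Without RIC_hEV 1 the relative log2 difference was 0.18 for Fads1 and 0.14 for Fads2, against 0.31 and 0.25 with all libraries, and with quantile normalization that of Fads2 was 0.0556.

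The summed FPKM of the elongases was made up almost wholly of Elovl5 and Elovl2 in both groups. Elovl5 averaged 188 ± 39.1 FPKM in RIC_hEV and 178 ± 37.9 FPKM in ctr_hEV. Elovl2, which extends the longest polyunsaturated chains, averaged 177 ± 20.8 FPKM in RIC_hEV and 167 ± 31.7 FPKM in ctr_hEV. Their shares of the 5 elongases were 49.1% ± 4.12 and 46.7% ± 4.19 in RIC_hEV, and 49.3% ± 1.64 and 46.4% ± 1.36 in ctr_hEV. Elovl1, an elongase of saturated very long chains, averaged 10.5 ± 2.45 FPKM in RIC_hEV and 11.1 ± 1.55 FPKM in ctr_hEV. Elovl6, which extends palmitate to stearate, was at 3.45 to 4.41 FPKM in RIC_hEV, against 2.37 and 2.97 FPKM in ctr_hEV 1 and 3 and 4.01 and 3.98 FPKM in ctr_hEV 2 and 4. Its relative log2 difference of 0.32 (limma adjusted p = 0.466) was 0.02 without ctr_hEV 1 and ctr_hEV 3.

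Elovl3, a strongly regulated elongase of liver, skin and brown fat, fell below the level filter. It was at 1.42, 1.40, 1.17 and 0.655 FPKM in RIC_hEV 1 to 4, and at 0.0605, 1.12, 0.0710 and 1.196 FPKM in ctr_hEV 1 to 4. As in Thrsp, ctr_hEV 1 and 3 stood far below the rest, at an estimated 3.30 and 3.32 fragments against 24.9 to 71.6 in RIC_hEV. The groups overlapped (two-sided exact permutation test over 70 assignments, p = 0.200, smallest possible p 0.0286; limma adjusted p = 0.593 in the fit without the filter).

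**Figure D4:**
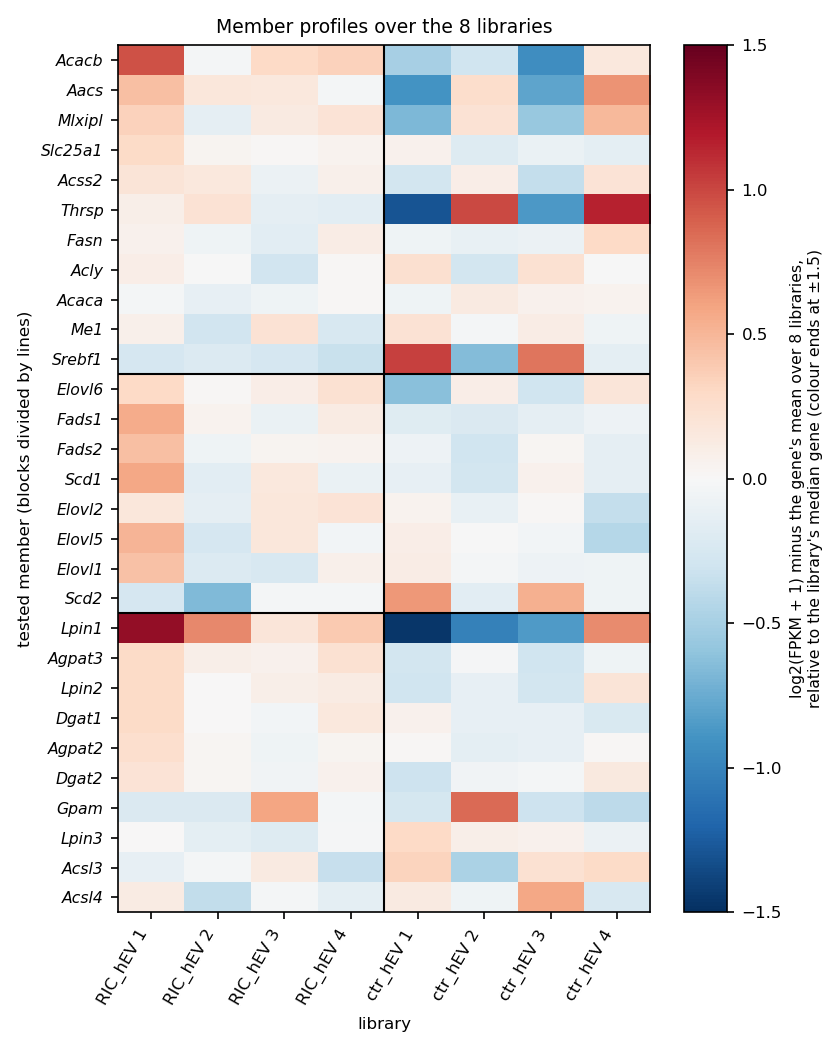
Each tested member's log2(FPKM + 1) in each library, as the difference from the member's mean over 8 libraries and relative to the library's median gene; rows are ordered by block and by relative difference, RIC_hEV libraries stand left of the vertical line and ctr_hEV libraries right of it. Thrsp and Aacs are blue and Srebf1 and Scd2 are red in ctr_hEV 1 and 3, and Lpin1 is blue in ctr_hEV 1, 2 and 3 but red in ctr_hEV 4.

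In glycerolipid assembly the largest difference of all members was in Lpin1 (chromosome 12, 16535669 to 16610966, minus strand), a phosphatidate phosphatase that also acts in the nucleus as a coactivator of fatty acid oxidation genes. Lpin1 was at 25.8, 17.2, 11.7 and 14.2 FPKM in RIC_hEV 1 to 4, and at 3.75, 4.81, 5.84 and 17.0 FPKM in ctr_hEV 1 to 4. All RIC_hEV libraries lay above ctr_hEV 1, 2 and 3, while ctr_hEV 4 lay inside the RIC_hEV range. The relative log2 difference was 1.31, and 1.199 as fitted (SE 0.38, unadjusted p = 0.00914, limma adjusted p = 0.334). Without ctr_hEV 4 it was 1.76 and passed, at a limma adjusted p of 0.0255 (0.0255 to 0.886 over all alternatives), in a fit where 1.56% of all tested genes passed. That fit leaves out the ctr_hEV value inside the RIC_hEV range, so its pass gives no support for a difference. Without ctr_hEV 1 and ctr_hEV 3 the relative log2 difference of Lpin1 was 0.80 and did not pass (limma adjusted p = 0.886).

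Lpin2, the main lipin of liver, was at 52.2 to 61.6 FPKM in RIC_hEV and 47.7 to 59.3 FPKM in ctr_hEV (relative log2 difference 0.26, limma adjusted p = 0.492; 0.093 without ctr_hEV 1 and ctr_hEV 3). Lpin3 averaged 1.73 ± 0.204 FPKM in RIC_hEV and 2.37 ± 0.622 FPKM in ctr_hEV (limma adjusted p = 0.366). The share of Lpin1 in the summed lipin FPKM was 28.9%, 24.2%, 16.9% and 18.8% in RIC_hEV 1 to 4, and 6.6%, 8.38%, 10.5% and 21.8% in ctr_hEV 1 to 4. The sum of the 3 lipins was 69.2 to 89.3 FPKM in RIC_hEV, against 55.9 to 57.4 FPKM in ctr_hEV 1, 2 and 3 and 78.0 FPKM in ctr_hEV 4. Shares overlapped through ctr_hEV 4 alone, and no test was run on them.

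**Figure D5:**
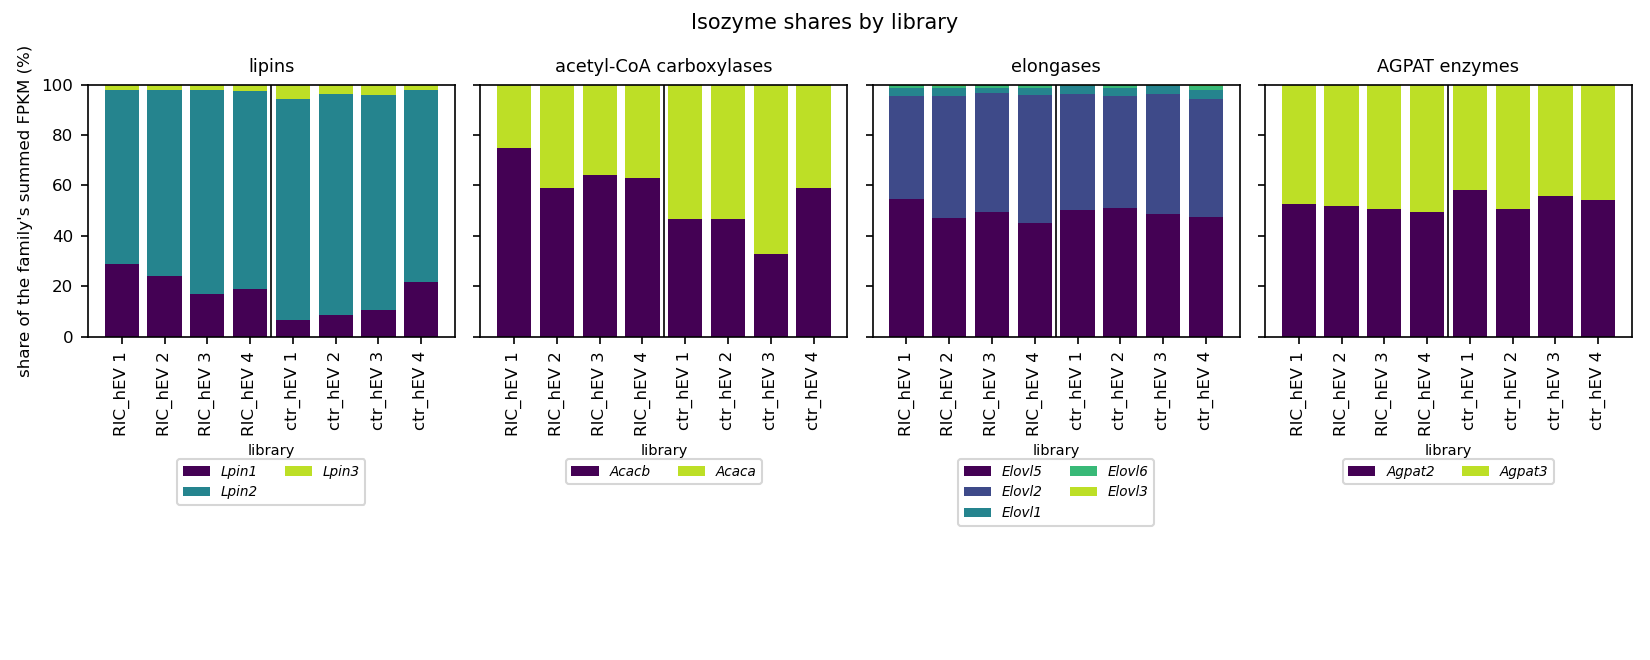
Share of each isozyme in the summed FPKM of its family in each library, in percent, for lipins, acetyl-CoA carboxylases, elongases and AGPAT enzymes, with RIC_hEV libraries left of the line and ctr_hEV libraries right of it. Lpin1 holds 16.9% to 28.9% in RIC_hEV, Acacb holds more than Acaca in all RIC_hEV libraries and in ctr_hEV 4, and the shares of Elovl5 and Elovl2 overlap between the groups.

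Agpat3 (chromosome 10, 78269178 to 78352489, minus strand), a lysophosphatidate acyltransferase that also loads docosahexaenoate, was the single tested member whose groups did not overlap. Of all tested genes 5.87% were so separated, 1.31% higher and 4.56% lower in RIC_hEV. Agpat3 was at 43.3, 38.8, 38.4 and 44.95 FPKM in RIC_hEV 1 to 4, and at 35.6, 38.2, 33.05 and 34.8 FPKM in ctr_hEV 1 to 4. The gap was narrow, with RIC_hEV 3 only just above ctr_hEV 2. The relative log2 difference was 0.33 (SE 0.10, unadjusted p = 0.0505, limma adjusted p = 0.357), and 0.20 without ctr_hEV 1 and ctr_hEV 3. Agpat2, whose loss causes lipodystrophy in humans and mice, averaged 43.3 ± 3.49 FPKM in RIC_hEV and 42.9 ± 4.38 FPKM in ctr_hEV, with a 95% interval of the relative log2 difference from -0.12 to 0.36.

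Neither diacylglycerol acyltransferase passed, and the ranges overlapped. Dgat2, which works on newly made fatty acids, was at 121 to 140 FPKM in RIC_hEV and 119.5 to 138 FPKM in ctr_hEV, with a relative log2 difference of 0.12 and a 95% interval from -0.10 to 0.34. Dgat1, which re-esterifies fatty acids from outside the cell and from lipolysis, averaged 6.93 ± 0.792 FPKM in RIC_hEV and 6.44 ± 1.17 FPKM in ctr_hEV. Dgat2 held 95% ± 0.258 of their sum in RIC_hEV and 95.3% ± 1.11 in ctr_hEV. Gpam, the mitochondrial acyltransferase that starts glycerolipid synthesis, was at 20.7, 21.4, 38.5 and 25.65 FPKM in RIC_hEV 1 to 4, and at 24.7, 48.6, 22.3 and 18.8 FPKM in ctr_hEV 1 to 4. In each group a different-numbered library stood high, RIC_hEV 3 and ctr_hEV 2, and the groups overlapped (relative log2 difference 0.06, limma adjusted p = 0.936). Without ctr_hEV 1 and ctr_hEV 3 the relative log2 difference of Gpam was -0.20.

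The acyl-CoA synthetases Acsl3, which sits on growing lipid droplets, and Acsl4, which prefers arachidonate, both lay below the median gene. Acsl4 was at 18.5, 13.3, 17.3 and 16.5 FPKM in RIC_hEV 1 to 4, and at 23.05, 17.7, 29.8 and 14.6 FPKM in ctr_hEV 1 to 4. Acsl3 averaged 2.72 ± 0.475 FPKM in RIC_hEV and 3.66 ± 1.21 FPKM in ctr_hEV. Neither passed (limma adjusted p = 0.439 and 0.461), and their relative log2 differences of -0.21 and -0.18 were 0.05 and 0.006 without ctr_hEV 1 and ctr_hEV 3.

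Of 4 members below the filter, Mogat1, a monoacylglycerol acyltransferase, was at 0.459 to 0.960 FPKM in RIC_hEV and 0.374 to 1.001 FPKM in ctr_hEV (two-sided exact permutation test, p = 0.8). Pnpla3 (chromosome 15, 84167837 to 84187236, plus strand), the lipid droplet protein whose human variant is a known risk factor for fatty liver, was at 0.0575, 0.0638, 0.0843 and 0.0819 FPKM in RIC_hEV 1 to 4, and at 0.129, 0.223, 0.173 and 0.108 FPKM in ctr_hEV 1 to 4. All RIC_hEV values lay below all ctr_hEV values, at the smallest p the design allows (two-sided exact permutation test, p = 0.0286, not adjusted for the 4 members so tested). Among genes above the filter 4.56% were so separated and lower in RIC_hEV, and no such share was taken below it. The Pnpla3 levels rest on an estimated 1.98 to 3.72 fragments per RIC_hEV library and 4.22 to 9.93 per ctr_hEV library. The limma adjusted p of Pnpla3 in the fit without the filter was 0.530. Pnpla5 was listed at 0 in all 8 libraries.

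The members also varied more between libraries in ctr_hEV. The SD of log2(FPKM + 1) was larger in ctr_hEV for 23 of 29 tested members (79.3%), and for 64.4% of all tested genes. The median SD of the tested members was 0.164 in RIC_hEV and 0.263 in ctr_hEV, against 0.148 in RIC_hEV and 0.189 in ctr_hEV over all tested genes. The widest spans were 23.5-fold between the lowest and highest library for Elovl3 and 13.9-fold for Thrsp, while Dgat2 spanned 1.17-fold.

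Around the members, 71 further genes of the pathway were read from 5 lists, and none of the 65 tested passed over all genes. Of 15 genes of SREBP processing and lipogenic transcription, 9 lay above and 6 below the median gene, with a median relative log2 difference of 0.07; as fitted, 4 were higher and 11 lower in RIC_hEV. Insig1, which holds SREBPs in the endoplasmic reticulum, was at 17.0 to 18.7 FPKM in RIC_hEV, against 14.97, 9.57, 14.1 and 24.3 FPKM in ctr_hEV 1 to 4. Scap, the escort of SREBPs, averaged 10.1 ± 1.05 FPKM in RIC_hEV and 9.19 ± 0.555 FPKM in ctr_hEV. They had the largest differences of their list and neither passed (limma adjusted p = 0.581 and 0.542).

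Of 10 genes supplying NADPH and citrate, 6 lay above and 4 below, with a median of 0.03; as fitted, 3 were higher and 7 lower. Mpc2, a subunit of the mitochondrial pyruvate carrier, was at 25.5 to 29.6 FPKM in RIC_hEV and 19.4 to 24.3 FPKM in ctr_hEV, without overlap (relative log2 difference 0.42, limma adjusted p = 0.353). Of 16 tested genes of other elongation and desaturation steps, 10 lay above and 6 below, with a median of 0.06; as fitted, 7 were higher and 9 lower. Acot1, an acyl-CoA thioesterase, averaged 45.6 ± 12.3 FPKM in RIC_hEV and 29.3 ± 4.69 FPKM in ctr_hEV (limma adjusted p = 0.351). Elovl7 was at 1.04 to 2.399 FPKM in RIC_hEV and 1.57 to 4.26 FPKM in ctr_hEV (relative log2 difference -0.49, limma adjusted p = 0.354).

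Of 16 tested genes among other glycerolipid and acyl-CoA enzymes, 13 lay above and 3 below, with a median of 0.08; as fitted, 7 were higher and 9 lower, with a median of -0.03. Fitm2, which partitions triglyceride into droplets, was at 27.4 to 37.6 FPKM in RIC_hEV and 19.9 to 25.6 FPKM in ctr_hEV, without overlap (relative log2 difference 0.54, SE 0.13, unadjusted p = 0.00605, limma adjusted p = 0.332). Plpp3, a lipid phosphate phosphatase named after its values were seen, was at 32.6 to 39.3 FPKM in RIC_hEV and 40.02 to 41.5 FPKM in ctr_hEV, also without overlap but lower in RIC_hEV (relative log2 difference -0.03, limma adjusted p = 0.461). Groups without overlap were thus found in 4 of the 65 tested list genes, with Mpc2, Fitm2 and Mlycd higher and Plpp3 lower in RIC_hEV. Of all tested genes 5.87% were so separated, 1.31% higher and 4.56% lower in RIC_hEV. These counts were not tested. Fitm1, of the same family as Fitm2, was at 8.10 to 12.7 FPKM in RIC_hEV and 4.11 to 11.1 FPKM in ctr_hEV (limma adjusted p = 0.490). Of 8 genes that control acetyl-CoA carboxylase, 2 lay above and 6 below, with a median of -0.06 and the same counts as fitted. Mlycd, which removes malonyl-CoA, was at 30.7 to 34.5 FPKM in RIC_hEV and 26.5 to 29.7 FPKM in ctr_hEV, without overlap (limma adjusted p = 0.359). Prkab2, a subunit of the AMP-activated kinase that inhibits the carboxylases, averaged 1.22 ± 0.316 FPKM in RIC_hEV and 1.94 ± 0.526 FPKM in ctr_hEV (limma adjusted p = 0.354).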

How the data were processed

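Liver RNA of 8 libraries, 4 RIC_hEV and 4 ctr_hEV, was extracted with Trizol, per the labels' protocols. The authors deposited FPKM values per gene; per the submitters' processing notes, their tools included Trimmomatic 0.38, HISAT2 2.2.1, HTSeq 0.13.5 and DESeq2 1.18.1 with build mm10, with strand setting and annotation not given in the sources used here. Of 55335 rows, 3225 without a gene name (0.176% to 0.207% of FPKM) were left out. From the deposited FPKM, log2(FPKM + 1) was fitted with limma 3.58.1 (R 4.3.3, trended variance) over 11274 genes with a mean of at least 1 FPKM; p-values were adjusted by Benjamini-Hochberg and called under 0.05; 4 members below that filter had exact permutation tests. The script was tested on simulated data. Depth was estimated from the commonest low value of FPKM times exon length, read as 1 fragment, and all estimated fragments rest on that reading. Since 15.7% to 17.4% of low values lay within 0.02 of a whole multiple of it, no count model was used. FPKM precision below a few fragments is poor. Genes were annotated with GENCODE M21. All 33 members are named; from 5 pathway lists, up to 2 genes each with the largest relative difference, of which 1 is not reported here. Members and lists were chosen with earlier results of these data known. Same-numbered libraries did not pair (correlations from -0.227 to 0.12). Alternatives were another pseudocount, no filter, median centring, quantile normalization, TPM, a replicate block and left-out libraries.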

Additional observations from a re-analysis of the deposited data

Results flagged for a closer look

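Each member's 4 values per group were searched for a single library far from the other 3, by Dixon's ratio of the gap to the range at its 95% critical value. Of 64 such groups 2 were beyond it, where chance gives about 1 in 20. Lpin1 in ctr_hEV 4, at 17.02 FPKM, stood above the rest of its group, which lay between 3.75 and 5.84 FPKM (ratio 0.842). Acss2 in RIC_hEV 3, at 2.617 FPKM, stood below the other RIC_hEV libraries, which lay between 3.2 and 3.27 FPKM (ratio 0.895).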

How the results depend on the processing

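With limma, 4 genes were called over the whole table; the number was 2 with no filter on low values, 8 without ctr_hEV 1 and ctr_hEV 3, and 1 to 176 with 1 library left out, the highest without ctr_hEV 4. Called members numbered 0, but 1 (Thrsp) without ctr_hEV 1 and ctr_hEV 3. With 1 library left out they numbered 0 to 1 (Lpin1, 1.76 without ctr_hEV 4, and 1.04 to 1.76 over these fits). The libraries left out for these calls held the low Thrsp values and the high Lpin1 value of ctr_hEV, so neither call gives support. Of members below the filter, 1 (Pnpla3) was under an unadjusted 0.05 in the permutation test, and 0 to 1 with 1 library left out, where fewer libraries allow fewer assignments. Without ctr_hEV 1 and ctr_hEV 3 the count was 0, but too few assignments remain there for any p under 0.05, so that count carries no information. The lipogenic median of 0.005, which is Thrsp's own value, was 0.21 with a pseudocount of 0.1, 0.12 on the TPM scale and -0.0259 to 0.173 with 1 library left out. The glycerolipid median was 0.0355 with no filter and 0.0253 with quantile normalization. Directions reversed with no filter for Thrsp (-0.0806), Elovl1 (-0.0565) and Gpam (-0.0264), and with quantile normalization for Fasn (0.0163), Thrsp (-0.0450) and Dgat2 (-0.0456). Without ctr_hEV 1 and ctr_hEV 3 they reversed for Acly (0.10), Acss2 (-0.0688), Aacs (-0.28), Srebf1 (0.14), Mlxipl (-0.21), Thrsp (-1.07), Gpam (-0.20), Acsl3 (0.0059) and Acsl4 (0.0486). With 1 library left out, ranges crossed 0 for Thrsp (-0.43 to 0.39), Elovl1 (-0.11 to 0.12), Fasn (-0.0637 to 0.0776) and Gpam (-0.12 to 0.35). The causes were not tested. The replicate block, by a number that 1 of 8 libraries correlated best with, gave 3 genes called and 0 members. Depth limits Pnpla3 and Elovl3, whose lowest libraries rest on an estimated 1.98 and 3.30 fragments.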
